A study of Homo sapiens with 4 samples.

Results

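The 10 genes described here make serine, load its carbon onto folate, or belong to the ATF4 response that drives serine synthesis. They were PHGDH, PSAT1, PSPH, SHMT1, SHMT2, MTHFD1, MTHFD2, MTHFD1L, ASNS and ATF4, and each was found by its symbol as 1 row among the 24014 genes of the count table. They were measured in SK-N-SH, a human neuroblastoma cell line, in 4 RNA-seq libraries. The 2 control libraries came from cells given an empty lentivirus vector, labelled wild type. The 2 AP1AR-DT_OE libraries came from cells given a lentivirus that carried the long non-coding RNA AP1AR-DT, also called AC109347.1. All 4 therefore came from lentivirus-treated cells, the vector carries a puromycin resistance gene, and the labels do not say whether the replicates were separate cultures, so P values measure only the spread between these libraries. The label of 1 AP1AR-DT_OE library (replicate 2) names AC109347.2 as the RNA while its title names AC109347.1, and the title was followed. None of the 10 genes passed the DESeq2 test of AP1AR-DT_OE against control, and for 8 of them replicates of a group differed by more than the fitted group difference.

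AP1AR-DT itself (ENSG00000260526, chr4:112229561-112231596, GRCh38) had 3 and 18 read counts in control against 680 and 1065 in AP1AR-DT_OE. The groups were far apart, with a Log2FC of 6.63 ± 0.64 (SE) and an adjusted P of 3.23e-21 by DESeq2, although edgeR's quasi-likelihood test gave it an adjusted P of 0.390. Libraries held between 21988065 and 26184599 counts and between 19833 and 21280 genes above 0. A pair of reads was worth about 4 counts. Summed over 8 measured adrenergic markers of neuroblastoma, normalized read counts (counts divided by the library's size factor) were 29800 and 24078 in control and 28656 and 26372 in AP1AR-DT_OE. The sums over 9 mesenchymal markers were 156594 and 123159 in control and 151951 and 131540 in AP1AR-DT_OE, and 6 proliferation markers summed to 9754 and 8123 against 9534 and 8687. Defining markers of both neuroblastoma states were present, and all 3 sums overlapped between the groups. Single genes carried much of a sum: in control replicate 1, VIM held 93086 of the mesenchymal 156594 and HAND2 15659 of the adrenergic 29800. Overlap of the sums therefore does not describe each marker. TH, a defining adrenergic marker, was not analysed here.

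Serine is made from a glycolytic intermediate in 3 steps. PHGDH oxidises 3-phosphoglycerate, PSAT1 transfers an amino group from glutamate, and PSPH removes the phosphate. SHMT1 in the cytosol and SHMT2 in mitochondria then split serine into glycine and a carbon unit bound to tetrahydrofolate. MTHFD2 and MTHFD1L carry that unit to formate inside mitochondria, and the trifunctional MTHFD1 takes formate up again in the cytosol, where it serves purine and thymidylate synthesis. ATF4, a transcription factor translated when eIF2 is phosphorylated, induces most of these enzymes when amino acids are short, together with ASNS, the enzyme that makes asparagine. The cells grew in medium with added non-essential amino acids, a supplement that supplies serine, glycine and asparagine.

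Several members have intronless copies in the genome that resemble all or part of their transcript, and for MTHFD1 the copy held most of the counts. MTHFD1P1 is a processed pseudogene on the X chromosome. It aligned with MTHFD1 over 88.9% of the transcript at 93.1% identity, and 26 of the 27 exon junctions of MTHFD1 lay inside that alignment. Stretches of 60 bases around 1 such coding junction are shown to let the 2 sequences be compared, with the bases that differ in capitals. That of MTHFD1 lies on the plus strand at chr14:64898328-64898357 and chr14:64898505-64898534, on either side of an intron of 147 bases. The stretch of MTHFD1P1 lies unbroken on the minus strand at chrX:57420430-57420489. Both are GRCh37 positions from GENCODE transcripts.
MTHFD1: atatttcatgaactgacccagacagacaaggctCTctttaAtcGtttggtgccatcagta
MTHFD1P1: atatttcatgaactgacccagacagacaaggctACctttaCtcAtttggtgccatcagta

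The transcripts of MTHFD1 and MTHFD1P1 differed at 4 of these 60 bases. Over the whole alignment they had 152 mismatches and 43 gap bases, and the longest run of identical bases was 144. No window of 150 bases, the read length, was free of a difference, and the median window held 9. For ATF4 the closest copy in sequence among those in the table was ATF4P3, with 97.5% identity over 1056 bases and a longest identical run of 146. Its stretch is shown in the same way around the coding junction of ATF4, which lies on the plus strand at chr22:39917647-39917676 and chr22:39917778-39917807. The copy is on the minus strand at chr17:74222632-74222691 (GRCh37).
ATF4: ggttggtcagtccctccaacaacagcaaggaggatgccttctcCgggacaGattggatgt
ATF4P3: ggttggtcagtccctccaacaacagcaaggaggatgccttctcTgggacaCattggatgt

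Only 2 of 60 bases separated ATF4 from ATF4P3 here, and no window of 150 bases was free of a difference, although some held a single one.

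Promoter windows from RefSeq (GRCh38.p14, from 250 bases before to 50 after a start) matched 8 of the 10 genes, with no entry for SHMT2 and PSPH. Because ATF4 binds elements of the form TGATGNAA together with C/EBP partners, this core was searched on both strands. It was in 3.62% of 35116 windows of all genes and, among the 13 windows of the 8 members, in windows of ASNS and MTHFD1L. The same site of MTHFD1L lay in overlapping windows, so a count of genes is not comparable with the share of windows. A match describes the sequence only and is no evidence of binding. The element of ASNS, in capitals, lies on the minus strand within chr7:97872449-97872496, and that of MTHFD1L on the plus strand within chr6:150866337-150866384.
ASNS: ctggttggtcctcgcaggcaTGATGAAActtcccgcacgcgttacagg
MTHFD1L: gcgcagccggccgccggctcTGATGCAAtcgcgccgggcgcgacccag

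NRF1, a transcription factor with many targets in mitochondrial metabolism, was a subject of the study, so the core of the NRF1 motif, GCGCATGCG, was searched in the same way. It was in 1.92% of all windows and, of the members, in that of MTHFD1, on the plus strand within chr14:64388236-64388284 (GRCh38.p14). The motif is nearly its own reverse complement, and a second match on the other strand overlapped this one.
MTHFD1: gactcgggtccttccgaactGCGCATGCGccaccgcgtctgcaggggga

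MTHFD1, whose window holds this motif, had means of 121 normalized read counts in control and 122 in AP1AR-DT_OE. The 95% interval of its Log2FC, from -1.16 to 1.19, left room for a difference in either direction. Its pseudogene MTHFD1P1 held 95.4% of the counts of the pair. The motif match describes the sequence only, and whether NRF1 acts on MTHFD1 was not tested.

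Across members, levels were compared as normalized read counts per kilobase of the canonical transcript. ATF4 was the highest, between 2800 and 3816 per kilobase over the 4 libraries, above 97.4% of 14871 protein-coding genes. PHGDH lay between 755 and 1783 per kilobase and SHMT2 between 896 and 1625, so their order was not set. PSPH (341 to 473) and PSAT1 (316 to 417) came next and also overlapped. MTHFD1L (142 to 225), SHMT1 (175 to 201), ASNS (154 to 199) and MTHFD2 (89.8 to 251) shared a range of levels per kilobase within which no order could be read. MTHFD1 was the lowest, at 35.5 to 41.7 per kilobase, above 38.8% of protein-coding genes. These levels depend on the transcript taken for the length: with the longest annotated one, the mean of MTHFD1 was 17.8 in place of 38.5 per kilobase and that of PHGDH 782 in place of 1333. ATF4 stayed the highest and MTHFD1 the lowest. With its pseudogene added, MTHFD1 reached a mean of 831 per kilobase and ranked 4 of 10 instead of 10.

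**Figure D1:**
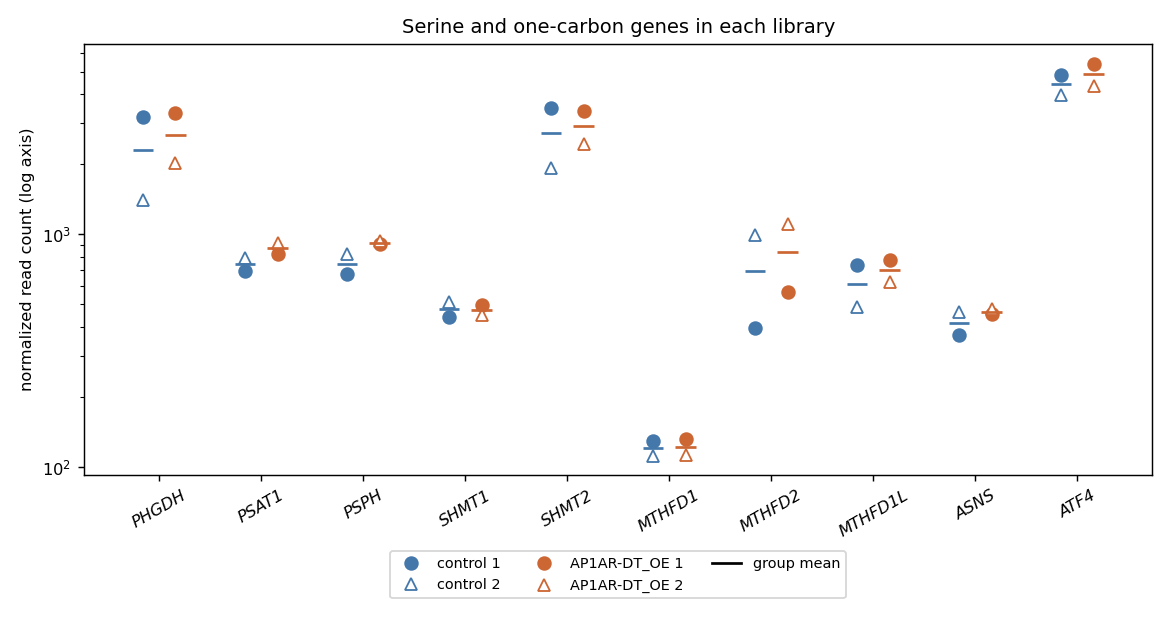
Normalized read counts (log axis) of the 10 genes in each library, with controls in blue, AP1AR-DT_OE in orange, replicate 1 filled, replicate 2 open, and a bar for each group mean. Both AP1AR-DT_OE libraries lie above both controls for PSAT1 and PSPH, while 7 of the 10 genes separate completely by replicate number. Replicate 1 is higher for PHGDH, SHMT2, MTHFD1, MTHFD1L and ATF4, and replicate 2 is higher for MTHFD2 and ASNS. The share of all genes that separate by replicate number was not computed, so the 7 are not a trait particular to these genes.

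The first comparison asked whether the 3 enzymes of serine synthesis differed with AP1AR-DT. PHGDH (ENSG00000092621, chr1:119648411-119744218; gene positions are GRCh38 as the table gives them) had normalized read counts of 3196 and 1409 in control and 3328 and 2020 in AP1AR-DT_OE. Replicate 1 was the higher library in both groups, and the groups overlapped. Its means were 2303 ± 1263 and 2674 ± 925 (SD, n = 2 each). The Log2FC was 0.22 ± 0.52 (SE), with a 95% interval from -0.81 to 1.24.

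PSAT1 (ENSG00000135069, chr9:78297125-78330093) had 697 and 795 normalized counts in control against 822 and 920 in AP1AR-DT_OE. PSPH (ENSG00000146733, chr7:56011051-56051604) had 673 and 823 in control against 906 and 933. For both genes the 2 AP1AR-DT_OE libraries lay above the 2 controls. With TMM scaling this remained for PSPH, but PSAT1 overlapped, at 836 in control replicate 2 and 814 in AP1AR-DT_OE replicate 1. The Log2FC of PSAT1 was 0.22 ± 0.45 (SE; 95% interval -0.66 to 1.11), and that of PSPH was 0.30 ± 0.45 (-0.59 to 1.18), the highest fitted value among the 10. Among 13298 genes whose mean normalized count reached 50, 5.11% had both AP1AR-DT_OE libraries above both controls and 4.35% had both below. The 10 members had 2 above and 0 below, and 8 overlapped.

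The second group were the SHMT enzymes, which release the carbon unit of serine. SHMT2 (ENSG00000182199, chr12:57229573-57234935), the mitochondrial enzyme, had 3504 and 1932 normalized counts in control and 3380 and 2443 in AP1AR-DT_OE. Both AP1AR-DT_OE libraries lay between the controls. The Log2FC was 0.10 ± 0.48 (SE), with an interval from -0.84 to 1.04. SHMT1 (ENSG00000176974, chr17:18327860-18363563), the cytosolic enzyme, had 442 and 509 in control and 495 and 448 in AP1AR-DT_OE. Its Log2FC of -0.01 ± 0.47 (SE; -0.94 to 0.91) was the only one below 0, and it was 0.03 once its pseudogene was added.

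The third group carry the folate-bound carbon. MTHFD2 (ENSG00000065911, chr2:74186172-74217565), the mitochondrial dehydrogenase and cyclohydrolase, had 395 and 997 normalized counts in control and 565 and 1106 in AP1AR-DT_OE. Replicate 2 was the higher library in both groups, opposite to PHGDH and SHMT2. The Log2FC of 0.26 ± 0.57 (SE; -0.86 to 1.39) was smaller than either replicate difference, which was 1.33 on the log2 scale between the controls and 0.97 between the AP1AR-DT_OE libraries. Gene ENSG00000264324, which overlaps exons of MTHFD2 on the opposite strand, had 296, 509 and 410 counts in the first 3 libraries and 9 in AP1AR-DT_OE replicate 2. The kit named in the labels does not keep the strand, so reads of both genes cannot be told apart in the shared exons. Its part in the count of MTHFD2 was not tested.

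MTHFD1L (ENSG00000120254, chr6:150865679-151101887), the mitochondrial formate-producing synthetase, had 735 and 489 normalized counts in control and 776 and 626 in AP1AR-DT_OE, and the groups overlapped. The Log2FC was 0.20 ± 0.48 (SE; -0.75 to 1.14). MTHFD1 (ENSG00000100714, chr14:64388031-64463457) had 130 and 112 in control and 132 and 112 in AP1AR-DT_OE. Its group means of 121 ± 12.7 and 122 ± 13.8 (SD, n = 2 each) gave a Log2FC of 0.01 ± 0.60 (SE). At about 4 counts to a pair, the 114 counts of control replicate 1 stand for 28.5 read pairs, with an exact 95% Poisson interval from 19.0 to 41.1 that covers counting error only. The interval of the Log2FC, from -1.16 to 1.19, allowed a difference of up to 2.28-fold higher.

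ATF4 (ENSG00000128272, chr22:39519695-39522683) had 4847 and 3973 normalized counts in control and 5415 and 4325 in AP1AR-DT_OE. Again the replicates differed more than the groups, and the Log2FC was 0.14 ± 0.43 (SE; -0.71 to 0.99). ASNS (ENSG00000070669, chr7:97851677-97872542) had 368 and 464 in control and 454 and 475 in AP1AR-DT_OE, with a Log2FC of 0.16 ± 0.48 (SE; -0.78 to 1.10). The lowest AP1AR-DT_OE value of ASNS was just under the higher control. The table counts RNA, so it holds nothing on the translation of ATF4.

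None of the 10 members was called at an adjusted P under 0.05 by DESeq2, against 36 (0.150%) of the 24014 genes fitted. Every member had an adjusted P of 1.00 by DESeq2. None had an unadjusted P under 0.05, a threshold that 0.816% of all genes passed. By edgeR's quasi-likelihood test 0 members and 0 of 17027 genes were called, and 0 members had an unadjusted P under 0.05. The fitted Log2FC was above 0 for 9 of the 10 members, against 45.1% of the 13298 genes with a mean of at least 50. The members' median was 0.18, within a range from -0.01 to 0.30, and the median over those genes was -0.02. These values are a description, since the members share libraries and size factors. Direction rested on single libraries: the sign turned for 5 of the 10 members without control replicate 2, for 1 without control replicate 1, for 4 without AP1AR-DT_OE replicate 1 and for 2 without AP1AR-DT_OE replicate 2. The median was 0.06 in the absence of control replicate 2 and -0.0025 in that of AP1AR-DT_OE replicate 1.

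**Figure D2:**
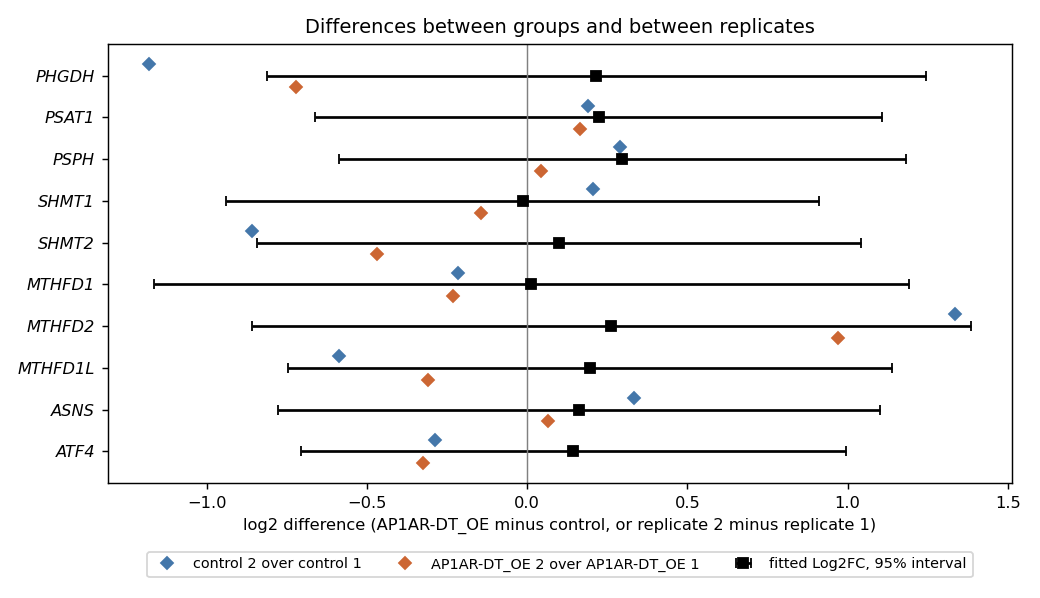
Fitted Log2FC of AP1AR-DT_OE against control with 95% intervals (black squares), beside the log2 ratio of replicate 2 to replicate 1 in control (blue) and in AP1AR-DT_OE (orange). All 10 intervals include 0, and for 8 of the 10 genes at least 1 replicate ratio is farther from 0 than the fitted Log2FC. The share of all genes for which this holds was not computed.

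Differences between replicates went with GC content, among the members and over all genes. In control, replicate 2 over replicate 1 ranged on the log2 scale from -1.18 for PHGDH to 1.33 for MTHFD2. The same 2 genes marked the ends in AP1AR-DT_OE, at -0.72 and 0.97. In 9 of the 10 members the replicate ratio had the same sign in both groups, SHMT1 being the exception at 0.20 in control and -0.14 in AP1AR-DT_OE. The share of all genes with the same sign was not computed. PHGDH and SHMT2 are the members whose transcripts have the highest GC content, 58.1% and 56.1%, and MTHFD2 has the lowest, 41.0%. Over the 10 members, Spearman's rho between GC content and the replicate ratio was -0.84 in control and -0.96 in AP1AR-DT_OE. Over 13175 genes in control and 13178 in AP1AR-DT_OE it was -0.79 and -0.67. The median size of the ratio in control was 0.31 for the members and 0.72 over genes with a mean of at least 50. In AP1AR-DT_OE it was 0.27 for the members and 0.42 over those genes. The points of each correlation share their libraries, and genes are not independent replicates.

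After a correction of each library for GC content, the replicate ratio of PHGDH was -0.51 in control and -0.40 in AP1AR-DT_OE, and that of MTHFD2 was 0.30 and 0.31. The range over the members narrowed to between -0.69 and 0.50 in control and between -0.45 and 0.31 in AP1AR-DT_OE. Not all members came closer to 0. In control, PSAT1 went from 0.19 to -0.69 and ASNS from 0.33 to -0.52, and the median size of the ratio over the 10 was 0.31 before and 0.34 after the correction. In AP1AR-DT_OE that median was 0.27 before and 0.20 after. Group differences stayed small after it, with a median Log2FC of 0.20, values from -0.06 to 0.40, and 0 members called.

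**Figure D3:**
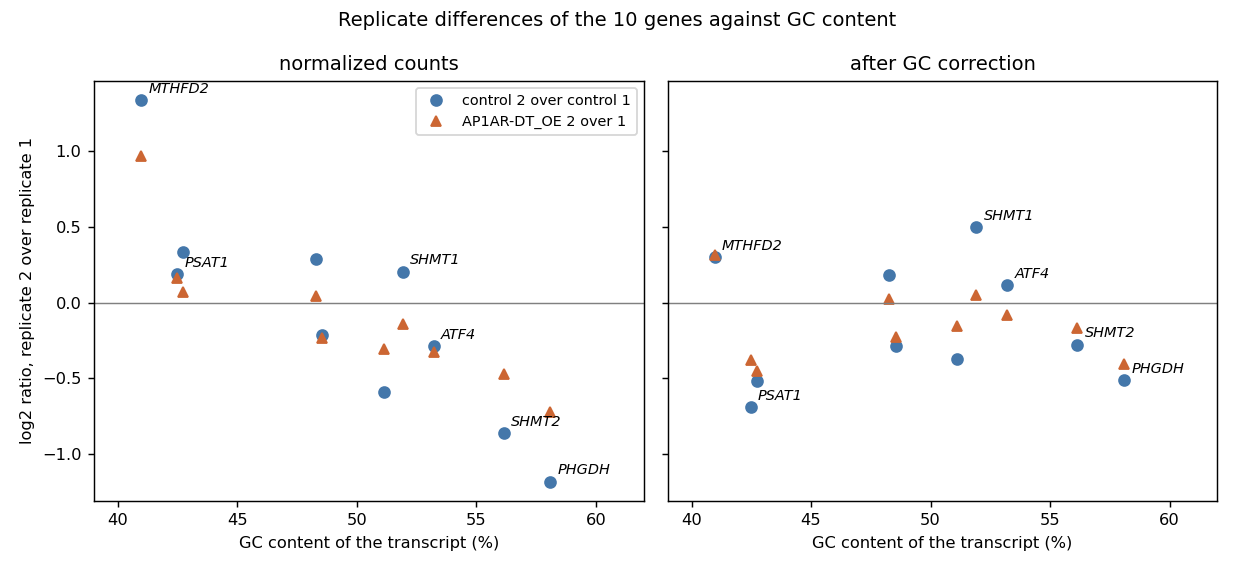
Log2 ratio of replicate 2 to replicate 1 for the 10 genes against the GC content of their canonical transcripts, in control (circles) and AP1AR-DT_OE (triangles), before (left) and after (right) GC correction. Before correction MTHFD2 lies highest at the low-GC end and PHGDH lowest at the high-GC end in both groups.

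The comparison of genes with their pseudogenes used raw counts. MTHFD1P1 (ENSG00000231831) had 2345 and 2956 counts in control and 2368 and 2466 in AP1AR-DT_OE, where MTHFD1 had 114 and 145, then 120 and 113. Pseudogene counts made up 95.4%, 95.3%, 95.2% and 95.6% of the pair in the 4 libraries in that order, nearly the same share in each. MTHFD1P1 had a Log2FC of 0.03 ± 0.43 (SE), and MTHFD1 with its pseudogene added had 0.03 ± 0.43, with normalized counts of 2801 and 2392 in control and 2729 and 2560 in AP1AR-DT_OE. Both AP1AR-DT_OE libraries lay between the 2 controls.

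ATF4P3 (ENSG00000228218) had 1235 and 1399 counts in control and 1457 and 1265 in AP1AR-DT_OE, and ATF4P4 (ENSG00000256167, 96.2% identity) had 537 and 662, then 564 and 558. Together they held between 28.6% and 29.5% of the counts of ATF4 and its copies. For SHMT1 the share on SHMT1P1 ran from 20.8% to 29.8%, for MTHFD2 that on MTHFD2P7 and MTHFD2P5 from 17.8% to 26.5%, and for PSAT1 that on PSAT1P3 and PSAT1P4 from 15.1% to 18.3%. These copies are partial. SHMT1P1 aligned over 52.39% of SHMT1, MTHFD2P7 and MTHFD2P5 over 22.19% and 19.49% of MTHFD2, and PSAT1P3 and PSAT1P4 over 50.45% and 23.89% of PSAT1. None of the 8 pseudogenes passed the test between groups (adjusted P of 1.00 each by DESeq2). With all of them added to their genes, every one of the 10 members had a Log2FC above 0, from 0.03 to 0.30, and 0 were called. PHGDH, PSPH, SHMT2, MTHFD1L and ASNS had no such pseudogene with at least 300 bases aligned at 90% identity in the table. Whether reads of the genes were placed on the copies was not tested.

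Other members also share exons with a gene on the opposite strand. SHMT1 shares them with SMCR8, which had 544 and 217 counts in control and 430 and 270 in AP1AR-DT_OE. SHMT2 shares them with NDUFA4L2, at 71 and 30 against 58 and 7 counts, and the counts of SHMT2 were far larger in each library. MTHFD1 shares them with ZBTB25, at 131 and 342 against 154 and 233 counts, more than MTHFD1 itself had in every library, so its own low count is uncertain on that side too.

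**Figure D4:**
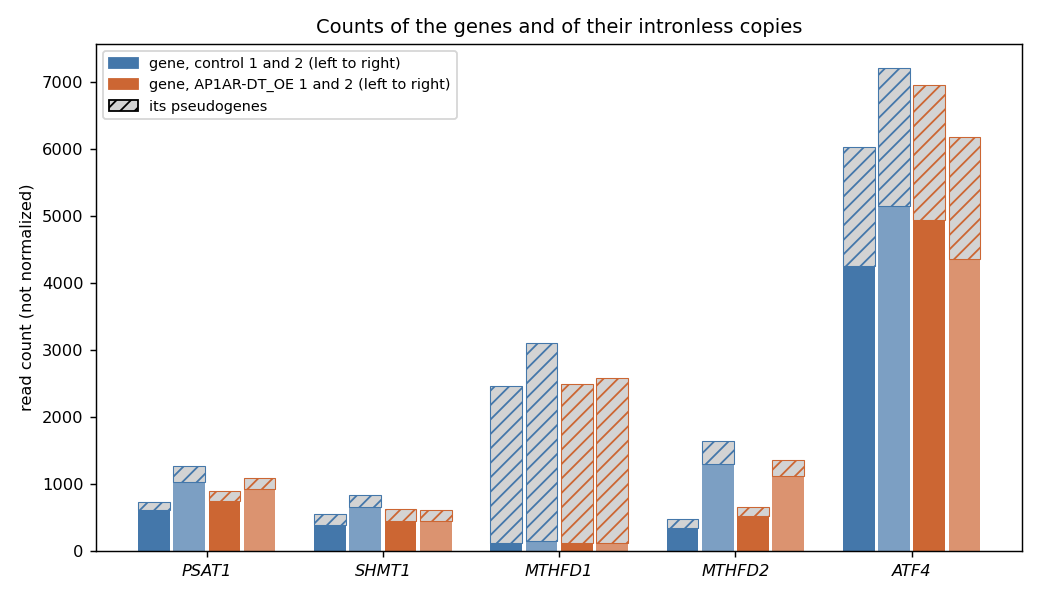
Read counts, not normalized, of the 5 genes with full or partial pseudogene copies in the table, stacked with the counts of those pseudogenes (hatched), for control 1, control 2, AP1AR-DT_OE 1 and AP1AR-DT_OE 2 from left to right. MTHFD1 is the gene whose copy holds most of the counts, over 95% in each library.

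The balance between mitochondrial and cytosolic enzymes was taken within each library as a ratio of values per kilobase. SHMT2 exceeded SHMT1 by 9.29-fold and 4.45-fold in control and by 8.0-fold and 6.39-fold in AP1AR-DT_OE. On the log2 scale of normalized counts the groups differed by 0.15, less than the SD of 0.75 between the controls. MTHFD1L exceeded MTHFD1 by 5.17-fold and 4.0-fold in control and by 5.38-fold and 5.10-fold in AP1AR-DT_OE, a log2 difference of 0.21. MTHFD2 exceeded MTHFD1 by 2.18-fold and 6.38-fold in control and by 3.07-fold and 7.06-fold in AP1AR-DT_OE, a log2 difference of 0.32. Exact permutation tests of the 3 ratios, two-sided, gave P of 1.00, 0.667 and 0.667, and 1.00 for each when adjusted by the Benjamini-Hochberg method. With 2 libraries against 2 such a test cannot go below 0.333. The differences rested on single libraries. Without control replicate 2 they were -0.38 for SHMT2 over SHMT1, 0.02 for MTHFD1L over MTHFD1 and 1.10 for MTHFD2 over MTHFD1, and without control replicate 1 they were 0.69, 0.39 and -0.45. Without AP1AR-DT_OE replicate 1 they were -0.01, 0.17 and 0.92, and without AP1AR-DT_OE replicate 2 they were 0.32, 0.24 and -0.28.

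The size of each fold also depends on the transcript lengths. With the longest annotated transcript of each gene, MTHFD1L exceeded MTHFD1 by 8.57-fold to 11.6-fold over the 4 libraries, MTHFD2 exceeded MTHFD1 by 3.19-fold to 10.3-fold and SHMT2 exceeded SHMT1 by 3.06-fold to 6.40-fold. The length cancels in the differences between groups.

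Adding MTHFD1P1 to MTHFD1 turned both ratios over MTHFD1 around (canonical lengths). MTHFD1L was then 0.240 and 0.187 times MTHFD1 per kilobase in control and 0.260 and 0.224 times in AP1AR-DT_OE, and MTHFD2 was between 0.137 and 0.381 times MTHFD1 over the 4 libraries. SHMT2 still exceeded SHMT1 in every library with SHMT1P1 added, by 3.52-fold to 6.52-fold.

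All 10 members together took 568.9 and 569.5 CPM (counts per 1e6 counts of the library) in control and 648.2 and 614.4 in AP1AR-DT_OE. Large genes weigh most in this sum: over the 4 libraries ATF4 had 18702 counts, SHMT2 11124 and PHGDH 9702, against 492 for MTHFD1. The normalized counts of ATF4, SHMT2 and PHGDH each overlapped between the groups. The mean was 569.2 ± 0.453 against 631.3 ± 23.9 CPM (SD, n = 2 each), and the exact permutation P was 0.333, the smallest this design allows. The groups were apart in CPM but not after normalization. Sums of normalized counts were 14987 and 11503 in control and 16271 and 13408 in AP1AR-DT_OE, and they overlapped. Scaled by TMM factors instead, the summed counts also overlapped, at 14705 and 12098 in control and 16127 and 13706 in AP1AR-DT_OE.

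The other genes of these pathways were taken from lists of their roles, and 0 genes of any list were called in either direction. Of 12 other folate cycle enzymes, 10 had a mean of at least 50, with 2 Log2FC values above 0, 8 below and a median of -0.12. The highest was TYMS, thymidylate synthase, with 1926 and 2038 normalized counts in control and 2604 and 2235 in AP1AR-DT_OE (Log2FC 0.29). ALDH1L1 and FTCD were at or near 0. The glycine cleavage list had 4 genes, and its measured pair at a mean of 50 or more, AMT and DLD, had Log2FC values of -0.07 and -0.02.

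Folate uptake and storage had 5 genes at that level, with 2 above 0 and 3 below. SLC19A1, the reduced folate carrier, had 6002 and 3727 normalized counts in control and 3818 and 835 in AP1AR-DT_OE. Its Log2FC was -1.06 ± 0.62 (SE) with an adjusted P of 1.00 by DESeq2, and the groups overlapped, AP1AR-DT_OE replicate 2 being the low library. The highest of the list was SLC46A1, the proton-coupled folate transporter, at 0.16. Among 11 transporters of serine and other neutral amino acids, 5 were above 0 and 6 below, from SLC38A1 at -0.28 to SFXN2, of the sideroflexin family, at 0.13.

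Of 9 genes in pathways that use serine, 5 were above 0, from SPTLC1 at -0.34, a subunit of serine palmitoyltransferase, to CTH at 0.40, the last enzyme of transsulfuration. CTH was near the cutoff of 50, with 45.6 and 40.9 normalized counts in control and 71.3 and 42.7 in AP1AR-DT_OE. Its SE was 0.80 and the groups overlapped. Of 11 genes of purine and thymidylate synthesis, 7 were above 0, from PPAT at -0.38 to PFAS at 0.35, which act in the same pathway of purine assembly. PFAS had 1874 and 1565 normalized counts in control and 2613 and 1773 in AP1AR-DT_OE, and the groups overlapped.

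The 13 genes listed as ATF4 partners and eIF2 kinases had 1 Log2FC above 0 and 12 below, with a median of -0.20, where ATF4 itself had 0.14. That list also holds an eIF2 subunit and regulators of eIF2 kinases and phosphatases, so its genes do not share 1 role. Over the 13298 genes with a mean of at least 50, 45.1% were above 0. Of the 13, 0 had both AP1AR-DT_OE libraries below both controls and 1 had both above. How far these directions rest on single libraries was not tested. The 1 with a Log2FC above 0 was EIF2AK1, the haem-regulated eIF2 kinase, at 0.12. ATF3, a transcription factor induced in the same stress response, was the lowest at -0.74 ± 0.79 (SE), with 63.8 and 453 normalized counts in control and 92.1 and 218 in AP1AR-DT_OE. Of the other ATF4 targets, 12 had a mean of at least 50, with 4 above 0, 8 below and a median of -0.05, from DDIT4 at -0.47 to STC2 at 0.30. DDIT4 had 1302 and 849 normalized counts in control and 1280 and 274 in AP1AR-DT_OE, replicate 2 being the low library. The 19 cytosolic aminoacyl-tRNA synthetases measured had 11 above 0, 8 below and a median of 0.04, from FARSB at -0.27 to HARS1 at 0.29. HARS1 had 1166 and 1231 normalized counts in control and 1060 and 1876 in AP1AR-DT_OE, replicate 2 being the high library. Whether the members' median of 0.18 differs from that of these lists was not tested.

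**Figure D5:**
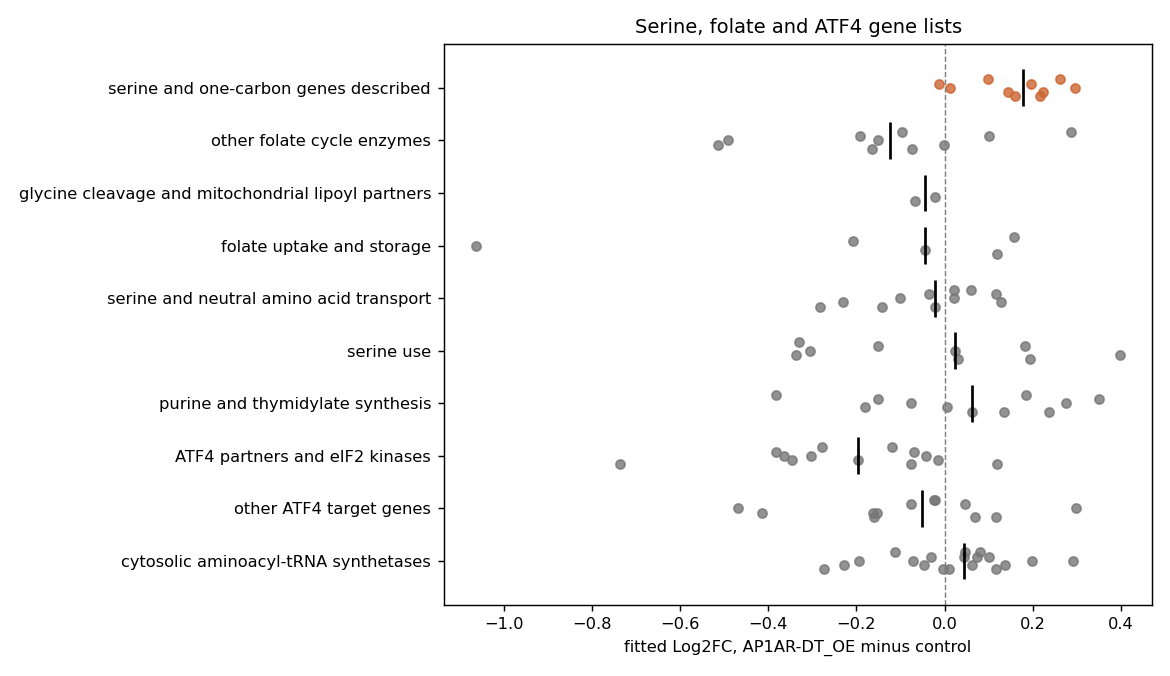
Fitted Log2FC of each gene whose mean normalized count reached 50, in the 10 members (orange) and 9 related lists (grey), with a bar at each list's median. The members' median is 0.18, that of ATF4 partners and eIF2 kinases is -0.20, and 0 of these genes were called. Of the ATF4 partners and eIF2 kinases, 0 have both AP1AR-DT_OE libraries below both controls.

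Among the marker genes of cell state, adrenergic Log2FC values at a mean of 50 or more ran from -0.07 (ISL1) to 0.23 (DBH), and those of proliferation from -0.21 (PCNA) to 0.23 (CCNB1). The mesenchymal marker PRRX1 stood out, with 2770 and 11358 normalized counts in control and 1241 and 2246 in AP1AR-DT_OE. Its Log2FC was -2.02 ± 0.61 (SE), with an adjusted P of 0.383 by DESeq2, and both AP1AR-DT_OE libraries lay below both controls. The other 8 mesenchymal markers lay between -0.41 and 0.12. The part of cell state in the members' values was not tested. In bulk libraries a change in the share of a cell type and a change in RNA per cell cannot be told apart.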

How the data were processed

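RNA of SK-N-SH cells was sequenced as 150-bp paired-end reads in 4 libraries, 2 per group, grouped by sample title. The deposited values, called read counts here, are whole numbers per gene with no normalization. According to the paper's methods, the authors aligned reads with HISAT2 to hg19 and took counts from StringTie, whereas the submitters' processing notes list TopHat2 2.0.4, SAMtools, HTSeq, Cuffdiff, edgeR 2.6.12 and hg19. The annotation is not given in the sources used here. The table also holds log2 fold changes, p-values and adjusted p-values from the authors' DESeq2 and edgeR tests, which were not used. Low values piled up at 4 (3287 entries) and 8 (1342), so a read pair was worth about 4 counts. Values of 1, 2 and 3 also occurred (1328, 1856 and 2136 entries), less than 1 such pair, so the values are not exact counts of pairs. How they were derived from the reads was not tested. Totals were between 21988065 and 26184599 counts, and the counting interval given leaves out PCR duplication and other library error.

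All 24014 genes, each above 0 in some library, were fitted with DESeq2 1.42.0 in R 4.3.3 (median-of-ratios size factors, two-sided Wald test, no covariate, Benjamini-Hochberg adjustment), with an adjusted P under 0.05 as the threshold for a call. The adjustment used DESeq2's default independent filtering, which can leave genes without an adjusted P. Shares of genes called are of all genes fitted. The members and gene lists were chosen with earlier results of these data known. Named genes were AP1AR-DT, the 10 members, their pseudogenes and overlapping genes, and from each other list every called gene plus the highest and lowest Log2FC among genes whose mean normalized count reached 50. One gene that this rule names is not reported here. Lengths and GC content came from the canonical GENCODE 44 transcripts (23221 genes matched), and pseudogenes from BLAST 2.17.0. Exact permutation tests used SciPy 1.17.1. The fitting scripts were tested on simulated data. Alternatives were edgeR 4.0.16 quasi-likelihood, TMM factors, a low-count filter (10 or more counts in 2 or more libraries), counts divided by 4, a replicate block, GC correction (lowess, span 0.3) with and without the block, each library left out, and, chosen after seeing the data, counts with pseudogenes added to their genes and lengths of the longest transcripts.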

Additional observations from a re-analysis of the deposited data

How the results depend on the processing

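The precision is limited by 2 libraries per group, and 95% intervals of the members' Log2FC all included 0. No member was called by DESeq2 in the analysis reported or under any alternative. Under edgeR's quasi-likelihood test, TMM factors, the count filter, counts divided by 4, the replicate block and GC correction with and without the block, 9 of 10 members kept a Log2FC above 0. Same-numbered libraries shared only a number in the labels. Their deviations from the group means correlated at 0.46 over genes, and with a replicate block the members' median Log2FC was 0.19 and 44 genes were called, and no member's call changed. With pseudogenes added SHMT1 turned to 0.032. The number of genes called was 36 in the analysis reported, 0 by edgeR (112 at an unadjusted P under 0.05, against 196 by DESeq2), 15 with counts divided by 4, 60 with GC correction and 65 with GC correction and the block. AP1AR-DT had a Log2FC of 6.60 by edgeR, no longer past the threshold (adjusted P of 0.390), where its adjusted P under the other alternatives ran from 1.97e-45 to 7.52e-09. With TMM factors 1 member, PSPH, in place of 2 had both AP1AR-DT_OE libraries on one side of both controls.

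Leaving out 1 library at a time, with the lone library taken to vary like the other group, called between 45 and 91 genes, with 82 without control replicate 2 and 91 without control replicate 1. Between 4 and 8 members then lay on one side, which fewer libraries make more frequent for all genes: 8 (7 above, 1 below) without control replicate 1, against 80.1% of the 13298 genes, 6 (5 above, 1 below) without control replicate 2, against 72.3%, 4 (all above) without AP1AR-DT_OE replicate 1, against 29.2%, and 6 (all above) without AP1AR-DT_OE replicate 2, against 37.1%. The members' median Log2FC ran from -0.0025 to 0.19. Single members ran from -0.25 to 0.92 for PHGDH, -0.26 to 0.59 for SHMT2, -0.32 to 1.09 for MTHFD2, -0.11 to 0.10 for SHMT1, -0.11 to 0.12 for MTHFD1, -0.057 to 0.52 for MTHFD1L and -0.034 to 0.29 for ATF4, each turning sign. PSAT1, PSPH and ASNS stayed above 0. The differences of the log2 ratios ran from -0.38 to 0.69 for SHMT2 over SHMT1, 0.02 to 0.39 for MTHFD1L over MTHFD1 and -0.45 to 1.10 for MTHFD2 over MTHFD1. The excess of the members' share of all counts in AP1AR-DT_OE ran from 7.94% to 13.9%. The cause of these movements was not tested.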
